A study of Drosophila melanogaster with 30 samples.

Results

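The comparison described here sets lymph glands of wasp-infested *Drosophila melanogaster* larvae against lymph glands of normal larvae of the same age, 96 h after egg laying (AEL). Infested larvae had been exposed at 72 h AEL to females of the parasitoid wasp *Leptopilina boulardi*, so that 24 h had passed since infestation, and wasp eggs were looked for in the hemolymph at dissection. Normal larvae were not exposed. All larvae were of the wild-type strain Oregon R. Libraries were taken for this comparison by their labels, and these were 4 infested and 5 normal libraries, or 9 of the 30 libraries of the series. Each library was prepared by Drop-seq, in which each cell is caught in a droplet with a bead that carries its barcode, from the dissociated primary lobes of lymph glands pooled from many larvae. The libraries held 20009 cells, of which 10179 came from infested and 9830 from normal lymph glands. The remaining libraries of the series came from normal lymph glands of other ages and from hemocytes in circulation.

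The lymph gland is the hematopoietic organ of the larva. Its prohemocytes (PH) are progenitors kept near the posterior signaling center (PSC), a small niche, and they give rise to plasmatocytes (PM), which engulf particles and secrete extracellular matrix, to crystal cells (CC), which carry the enzymes of melanization, and to lamellocytes (LM), large flat cells that encapsulate objects too big to engulf. Lamellocytes are rare in unchallenged larvae. Eggs of parasitoid wasps are known to induce them, and the capsule that they form around the egg becomes melanized. Antimicrobial peptides, by contrast, belong to the humoral response to bacteria and fungi, which runs through the Toll and Imd pathways.

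The infested libraries contained 1712 to 4537 cells with 8017498 to 23256620 UMIs (unique molecular identifiers, here 1 per captured transcript), and the normal libraries 632 to 3623 cells with 5940488 to 20028625 UMIs. The median number of UMIs per cell was 3808.5 to 7848 in infested libraries and 4607 to 8349.5 in normal libraries. Mitochondrial transcripts took 3.67% to 6.04% of the UMIs in infested and 3.00% to 4.89% in normal libraries, and ribosomal RNA genes 1.53% to 4.08% and 1.26% to 2.89%. Both measures were highest in infested library 4, which was also the shallowest per cell. The cells of infested libraries 3 and 4 had medians of 4644 and 3808.5 UMIs, while those of infested libraries 1 and 2 had medians of 7498.5 and 7848 UMIs. Barcode sequences found in more than 1 of the 9 libraries numbered 5. The libraries of a group are separate pools of larvae, and the p-values below measure the spread between these pools. Normal library 4 stood apart from the other normal libraries by its lamellocyte transcripts, and it is named below wherever a result rests on it.

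To ask how infestation changed expression in the lymph gland as a whole, UMIs were summed over the cells of each library and compared with edgeR's quasi-likelihood test. Values of libraries are given as CPM, the UMIs of a gene per 1000000 UMIs of its library after TMM normalization, in the order of the library numbers. Adjusted p-values are from that test with Benjamini-Hochberg adjustment over all genes tested. Of 7387 genes tested, 604 were higher and 717 lower in infested lymph glands at an adjusted p under 0.05, which is 8.18% and 9.71% of the genes. The groups did not overlap in CPM for 541 genes with higher values (7.32%) and 736 genes with lower values (9.96%). The median log2 fold change of all genes tested was 0.01. The counts moved with the libraries included. Without 1 library they ranged from 299 to 701 higher and 411 to 830 lower genes, with 299 and 411 without infested library 3 and 343 and 455 without normal library 4, and 263 of the 604 and 363 of the 717 genes were called whichever library was left out. In sums over cells, fewer cells of a type and less RNA per cell cannot be told apart.

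Lamellocyte genes made up most of the largest rises. Of 12 lamellocyte markers tested, 11 were higher in infested lymph glands, none was lower, and the median log2 fold change of the list was 4.10, whereas 8.18% of all genes were called higher. The gene lists here and below were drawn up with earlier results of these data known. Their counts are thus descriptive and no independent test. *atilla*, which encodes the surface protein of the lamellocyte antigen L1, was at 249.6, 439, 238 and 209.6 CPM in infested libraries, against 0.843, 11.8, 2.76, 41.3 and 3.15 CPM in normal libraries. Every infested library lay far above the highest normal one, library 4 (log2 fold change 4.48, SE 0.78, adjusted p = 0.0034). *PPO3*, the prophenoloxidase of lamellocytes, was at 50.7, 104, 32.7 and 34.1 CPM in infested libraries and at 0.506, 0.666, 1.52, 6.27 and 0.300 CPM in normal libraries (log2 fold change 4.77, SE 0.66, adjusted p = 0.000765). *CG14610* was at 185, 494, 167 and 227 CPM in infested libraries, against 1.69, 0.555, 0.381, 43.6 and 0.225 CPM in normal libraries, so that normal library 4 was far above the other 4 but still below every infested library (log2 fold change 4.76, SE 1.14, adjusted p = 0.0171). *betaTub60D*, a beta-tubulin, reached 196, 501, 174 and 191 CPM in infested and 6.24, 5.50, 4.86, 45.9 and 5.62 CPM in normal libraries (log2 fold change 4.24, SE 0.71, adjusted p = 0.00262).

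Infested library 2 and normal library 4 were the highest of their group for most of these genes. For the long noncoding RNA *CR44948*, infested library 2 had 143 CPM and the other infested libraries 22.4 to 26.2 CPM, while normal library 4 had 11.8 CPM and the other normal libraries 0.19 to 0.555 CPM (log2 fold change 4.17, SE 0.97, adjusted p = 0.0151). *CG1208*, a sugar transporter gene, was at 35.7, 158, 24.8 and 23.7 CPM in infested and 0, 0.333, 0.190, 15.6 and 0.300 CPM in normal libraries (log2 fold change 4.03, SE 1.06, adjusted p = 0.0251). Its call was lost without infested library 2 (log2 fold change 2.94, adjusted p = 0.0792), normal library 2 (3.70, adjusted p = 0.0533) or normal library 3 (3.75, adjusted p = 0.0512). Without normal library 4, 11 of the 12 markers remained higher with a median log2 fold change of 5.57, and without infested library 2 the fit called 9 of 13 markers tested, with a median of 3.03.

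More evenly raised among the lamellocyte markers was *mthl4*, a G protein-coupled receptor gene of the methuselah family, at 165 to 265 CPM in infested and 8.10 to 29.4 CPM in normal libraries (log2 fold change 3.55, SE 0.32, adjusted p = 5.59e-05). The noncoding RNA *CR44316*, also on the list, was at 217 to 323 CPM in infested and 37.1 to 69.97 CPM in normal libraries (log2 fold change 2.498, SE 0.19, adjusted p = 1.95e-05). *CG1648* was at 315 to 436 CPM in infested and 88.3 to 120.01 CPM in normal libraries (log2 fold change 1.92, SE 0.12, adjusted p = 4.63e-06). *CG33462*, the single marker tested that did not pass, was at 71.1, 62.0, 67.1 and 76.0 CPM in infested and 56.3, 69.5, 70.4, 107 and 96.2 CPM in normal libraries (log2 fold change −0.21, SE 0.17, adjusted p = 0.403). Among the lamellocyte markers named here, the groups overlapped for this gene only. In the genome annotation BDGP6.54, *atilla* lies on chromosome 2L from 12175451 to 12177886 on the minus strand, and *CG14610* on chromosome 3R from 7143729 to 7144295 on the minus strand.

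**Figure D1:**
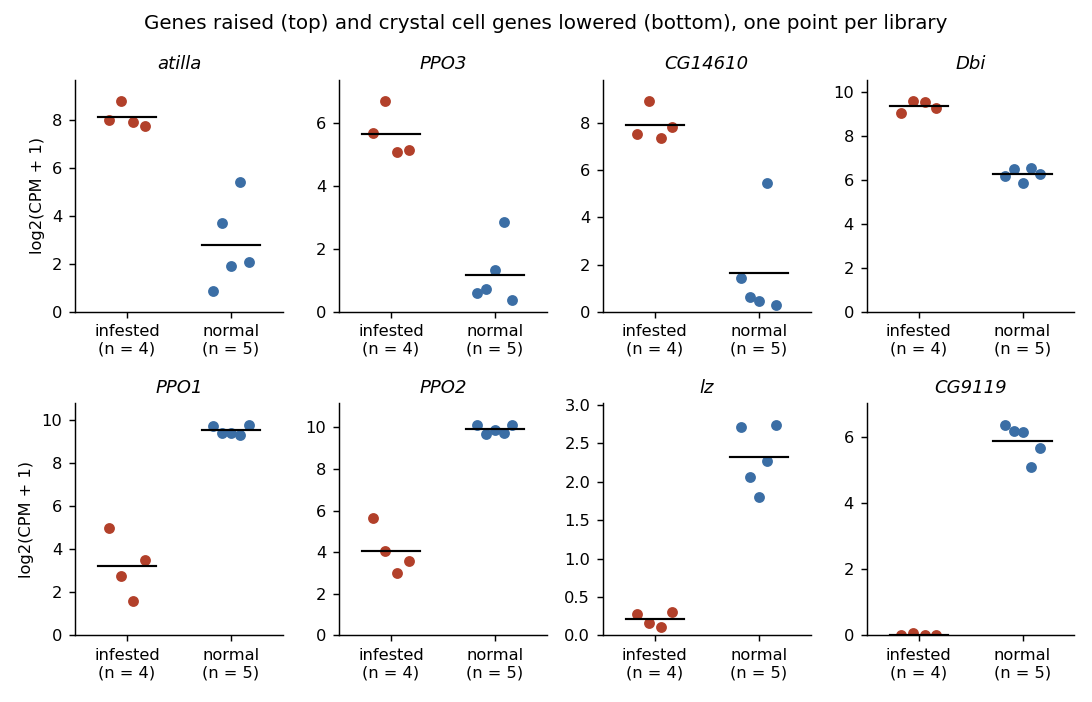
Level of 4 genes raised (top) and 4 genes lowered (bottom) in infested lymph glands, as log2(CPM + 1) on the y axis, for 4 infested libraries (left) and 5 normal libraries (right). Each point is a library and the line is the mean of the points. The groups do not overlap in any panel, and for *atilla*, *PPO3* and *CG14610* the highest normal point is library 4.

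Among the largest rises outside the marker list, *CG12133* was at 59.3, 70.7, 74.2 and 47.0 CPM in infested libraries, against 1.52, 1.83, 2.0002, 2.24 and 0.450 CPM in normal libraries (log2 fold change 5.27, SE 0.28, adjusted p = 2.17e-06). The spread within each group was small beside the difference, and normal library 4 did not stand apart. *Dbi*, which encodes an acyl-CoA binding protein, was the most abundant of the 15 genes that rose most, at 521, 769, 743 and 623 CPM in infested and 72.2, 89.8, 56.6, 92.4 and 74.8 CPM in normal libraries (log2 fold change 3.10, SE 0.17, adjusted p = 2.17e-06). *Sema-2b*, a secreted semaphorin, was at 20.4, 18.4, 33.3 and 34.03 CPM in infested and 6.58, 2.55, 3.62, 2.30 and 2.77 CPM in normal libraries (log2 fold change 3.001, SE 0.30, adjusted p = 0.000108). *CG2556* (log2 fold change 4.53, SE 0.48, adjusted p = 0.000157), *CG43179* (log2 fold change 2.85, SE 0.21, adjusted p = 1.75e-05) and *CG31219* (log2 fold change 2.46, SE 0.27, adjusted p = 0.00018) belong to the same 15 genes, and in none of them did the groups overlap.

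Some genes of cell shape and energy supply rose. Of 10 tubulin genes tested, 3 were higher and none lower, against 8.18% and 9.71% of all genes. Besides *betaTub60D* these were *alphaTub85E* and *betaTub97EF*. *alphaTub85E* was at 117, 413, 82.2 and 103 CPM in infested and 15.5, 18.2, 8.57, 57.1 and 14.4 CPM in normal libraries (log2 fold change 2.95, SE 0.60, adjusted p = 0.00807), and *betaTub97EF* was at 141 ± 11.3 CPM (SD, n = 4) in infested and 76.5 ± 8.26 CPM (SD, n = 5) in normal libraries (log2 fold change 0.88, SE 0.10, adjusted p = 0.00018). Of 14 integrin and linker genes, 2 were higher and 1 lower, against 8.18% and 9.71% of all genes. *ItgalphaPS5*, an integrin alpha subunit, was at 9.65, 9.94, 7.56 and 9.72 CPM in infested and 1.85, 3.11, 3.05, 4.54 and 3.07 CPM in normal libraries, with no overlap (log2 fold change 1.51, SE 0.20, adjusted p = 0.000647). *Treh*, the enzyme that splits trehalose, the main blood sugar of insects, was at 65.2, 103, 70.2 and 80.2 CPM in infested and 32.9, 27.3, 45.1, 29.997 and 36.6 CPM in normal libraries (log2 fold change 1.21, SE 0.16, adjusted p = 0.00069). Of 11 glycolytic genes, 3 were higher and none lower, against 8.18% and 9.71% of all genes. *Gapdh2*, which was among the 3, was at 566 ± 62.0 CPM (SD, n = 4) in infested and 421 ± 15.4 CPM (SD, n = 5) in normal libraries (log2 fold change 0.43, SE 0.09, adjusted p = 0.00884). Of 31 actin cytoskeleton genes, 4 were higher and 1 lower, against 8.18% and 9.71% of all genes.

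Crystal cell markers fell, several of them nearly to zero. Of 17 crystal cell markers, 16 were lower in infested lymph glands and none was higher, with a median log2 fold change of −4.004, whereas 9.71% of all genes were called lower. *PPO1* and *PPO2* encode the prophenoloxidases that crystal cells store and release. *PPO1* was at 30.6, 5.78, 2.04 and 10.2 CPM in infested libraries and at 839, 665, 662, 636 and 882 CPM in normal libraries (log2 fold change −5.92, SE 0.67, adjusted p = 0.000239). *PPO2* was at 48.7, 15.7, 6.94 and 10.996 CPM in infested libraries and at 1119.8, 823, 922, 846 and 1103 CPM in normal libraries (log2 fold change −5.54, SE 0.55, adjusted p = 0.000108). Infested library 1 kept the most of both transcripts, at a small fraction of the lowest normal library. *lz*, the Runx transcription factor that specifies crystal cells, was at 0.218, 0.120, 0.0831 and 0.231 CPM in infested and 5.56, 3.17, 2.48, 3.84 and 5.70 CPM in normal libraries (log2 fold change −4.69, SE 0.41, adjusted p = 5.27e-05).

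*CG9119* was represented by 1 UMI in the 4 infested libraries together and by 3660 UMIs in the 5 normal libraries, where it was at 81.6, 70.97, 69.4, 32.9 and 49.0 CPM. The ratio of normal to infested UMIs, scaled to the library totals, was 3546 (exact 95% interval 636 to 140108, covering counting error only). *peb*, a zinc finger transcription factor, was at 2.34, 0.542, 0.540 and 0.347 CPM in infested and 23.1, 20.9, 16.95, 17.6 and 30.6 CPM in normal libraries (log2 fold change −4.44, SE 0.42, adjusted p = 9.24e-05). *Pde1c*, a phosphodiesterase, was at 0.0416 to 0.361 CPM in infested and 15.3 to 25.96 CPM in normal libraries (log2 fold change −6.37, SE 0.35, adjusted p = 2.17e-06). *CG15343* was at 1.27 to 2.56 CPM in infested and 38.4 to 76.8 CPM in normal libraries (log2 fold change −4.66, SE 0.27, adjusted p = 2.74e-06). *fok* was at 5.0002 to 11.3 CPM in infested and 152 to 287 CPM in normal libraries (log2 fold change −4.45, SE 0.28, adjusted p = 4.63e-06). The single marker tested that did not pass was *klu*, a zinc finger gene, at 9.54, 8.55, 21.2 and 9.72 CPM in infested and 7.08, 8.33, 6.95, 7.29 and 8.70 CPM in normal libraries (log2 fold change 0.68, SE 0.25, adjusted p = 0.0856). *CG9119* lies on chromosome 3L from 1203316 to 1204795 on the minus strand and *lz* on chromosome X from 9284649 to 9303636 on the plus strand of BDGP6.54. With crystal cell-like, lamellocyte-like and dorsal vessel-like cells left out, an alternative chosen after seeing the data, the fit called 5 of 15 crystal cell markers lower and 1 higher, *klu* (log2 fold change 2.39, adjusted p = 0.00136). The calls of *CG15343* (−0.63, adjusted p = 0.154), *fok* (−0.48, adjusted p = 0.138) and the tubulin *alphaTub85E* (0.46, adjusted p = 0.193) were lost.

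To see which cells carried these genes, the cells of the 9 libraries were integrated and clustered on genes other than the naming markers, and the 18 clusters were then named from those markers as "-like" classes. Named clusters held 9026 of the 20009 cells. Most of the 10983 unnamed cells were in clusters with fewer than 3 raised markers of prohemocytes or plasmatocytes, and 491 of them in a cluster led by *IM18* and *kn* among others, whose leading genes held more markers of the PSC than of prohemocytes. The largest unnamed cluster, with 2975 cells, had 0.357 of the median UMIs of their libraries and was led by ribosomal RNA pseudogenes. Another, with 886 infested and 801 normal cells, was led by *CG31821*, *CG16710*, *Mp*, *CecA2* and *CecA1*. Unnamed cells made up 58.1% ± 3.77 (SD, n = 4) of an infested and 49.7% ± 1.23 (SD, n = 5) of a normal library (difference 8.33 percentage points, exact two-sided permutation test over libraries, p = 0.00794, adjusted p = 0.0159 over 8 classes). The smallest p that this test allows is 0.00794. Cluster borders moved with the settings of the clustering, and results within classes hold for the classes as drawn here. Within a class, the CPM of a library refers to the UMIs of that class in the library. A value given for a class over a whole group pools its libraries, as CPM of the UMIs of the class without TMM normalization. Sums over the markers of a cell type in a class use the naming markers.

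Crystal cell-like cells numbered 7 in infested and 133 in normal lymph glands. Their share was 0.142%, 0.0551%, 0.0441% and 0.0584% in the infested libraries, against 1.58%, 1.27%, 1.67%, 1.31% and 1.31% in the normal libraries (difference −1.35 points, exact permutation p = 0.00794, adjusted p = 0.0159). Counted without clusters, cells with UMIs of at least 4 of 9 crystal cell markers made up 0 to 0.0551% of the infested and 1.68% to 2.32% of the normal libraries. With every cell thinned to 2000 UMIs these shares were 0 to 0.0515% and 1.35% to 1.69%. The 7 infested crystal cell-like cells held *PPO1* at 13002 CPM and had a median of 2754 UMIs, while the 133 normal ones held it at 33029 CPM and had a median of 8439 UMIs.

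Lamellocyte-like cells made up 6.72%, 8.59%, 6.28% and 7.36% of the infested libraries and 3.96%, 4.11%, 4.645%, 3.26% and 3.83% of the normal libraries (difference 3.28 points, exact permutation p = 0.00794, adjusted p = 0.0159). This cluster did not hold like cells in both groups. Its 709 infested cells carried the lamellocyte markers at 14977 CPM in sum and its 383 normal cells at 1281 CPM, and its infested cells carried the plasmatocyte markers at 1679 CPM and its normal cells at 7019.8 CPM. When the libraries were merged without integration, lamellocyte-like cells made up 6.28% to 9.20% of the infested and 0 to 0.204% of the normal libraries. Cells with UMIs of at least 5 of 12 lamellocyte markers made up 11.4%, 16.7%, 7.05% and 9.93% of the infested libraries, against 0, 0.276%, 0.175%, 0.734% and 0.252% of the normal libraries. At 2000 UMIs per cell these shares were 3.55%, 6.44%, 3.96% and 5.14%, against 0, 0, 0, 0.274% and 0. These counts form a range rather than a type, since 858 infested and 115 normal cells had 4 of the markers and 411 infested and 18 normal cells exactly 5. Thinning left out 1519 infested and 1065 normal cells with fewer UMIs. By each of these measures except the integrated cluster, normal library 4 was the highest of its group.

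Plasmatocyte-like cells made up 13.6% ± 1.08 (SD, n = 4) of the infested and 21.3% ± 1.16 (SD, n = 5) of the normal libraries (difference −7.66 points, exact permutation p = 0.00794, adjusted p = 0.0159), with no overlap. Prohemocyte-like cells made up 19.3%, 17.95%, 14.97% and 15.8% of the infested and 18.8%, 19.045%, 20.7%, 20.4% and 20.9% of the normal libraries, with overlap (difference −2.97 points, exact permutation p = 0.0317, adjusted p = 0.0363). This difference no longer passed the test without infested library 2, 3 or 4 or any 1 normal library (−3.28 to −2.29 points, adjusted p from 0.0612 to 0.0980). GST-rich-like cells were named from raised markers such as *CG18547*, *CG3397* and *dys*, after the GST-rich cells of the paper. They made up 2.70%, 3.14%, 2.20% and 3.15% of the infested and 1.27%, 1.60%, 1.58%, 1.71% and 2.17% of the normal libraries (difference 1.133 points, exact permutation p = 0.0159, adjusted p = 0.0212). The size of these differences depended on the integration. With the libraries merged without it, plasmatocyte-like cells made up 13.4% of the infested and 52.0% of the normal libraries on average, prohemocyte-like cells 18.6% and 32.7%, GST-rich-like cells 2.76% and 0.906%, and unnamed cells 56.9% and 11.4% (adjusted p = 0.0106 for each in the exact permutation test). PSC-like cells made up 0.843% ± 0.161 of the infested and 0.875% ± 0.421 of the normal libraries, a difference of −0.03 points (exact permutation p = 0.921). Dorsal vessel-like cells, named for the heart tube that the lymph gland flanks, were fewer in infested libraries, at 0.390% ± 0.201 of the cells, against 1.11% ± 0.458 in normal libraries (adjusted p = 0.0212 in the exact permutation test). That call was lost without infested library 3 or 4 (−0.64 and −0.71 points, adjusted p = 0.0714 for both) and without integration. None of the 6 dorsal vessel and muscle markers tested in the sums was called, nor was any of the 3 ring gland, 1 neuron and 1 fat body markers that were abundant enough to test of 8, 5 and 9 listed.

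**Figure D2:**
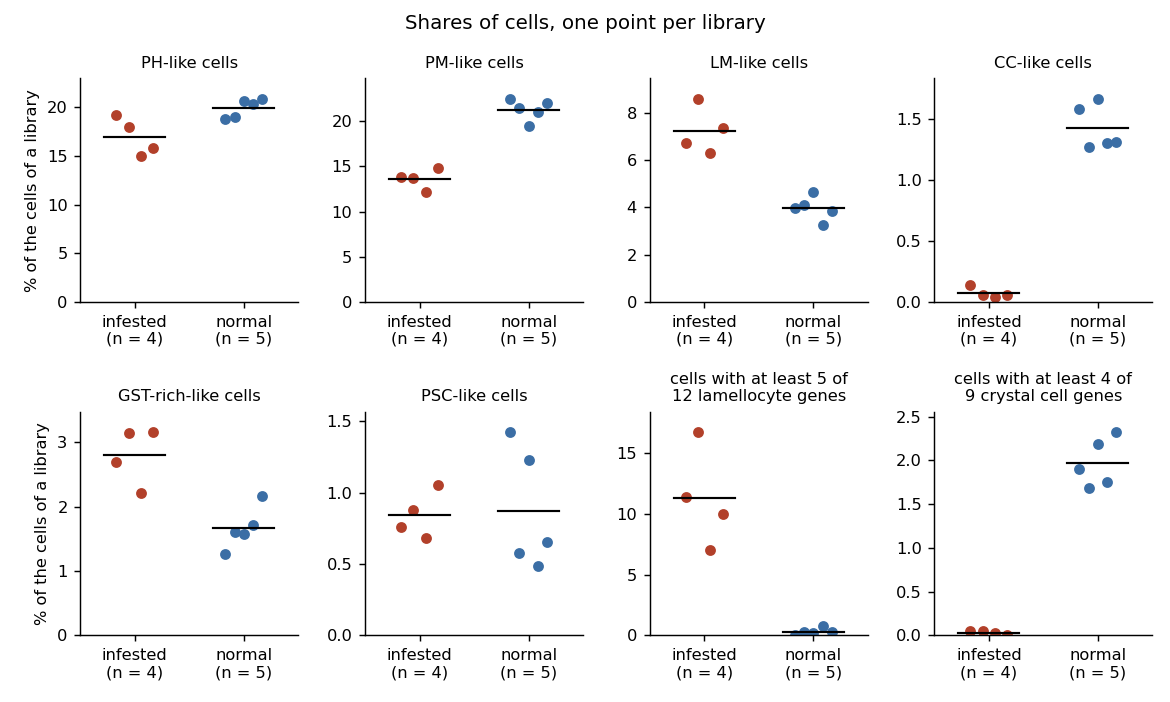
Share of the cells of a library (y axis, %) in 6 named classes and among cells that carry several lamellocyte or crystal cell markers, for 4 infested libraries (left in each panel) and 5 normal libraries (right). Each point is a library and the line is the mean. Infested points lie above all normal points for lamellocyte-like and GST-rich-like cells and below all of them for plasmatocyte-like and crystal cell-like cells, and they overlap for prohemocyte-like and PSC-like cells.

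Many genes of plasmatocytes and of the extracellular matrix were lower in infested lymph glands. Of 9 plasmatocyte markers 6 were lower and none higher, and of 12 basement membrane genes 6 were lower and 1 higher, against 9.71% and 8.18% of all genes. *Cg25C*, a collagen IV chain of the basement membrane, was at 348, 272, 224 and 448 CPM in infested libraries and at 745, 784, 814, 825 and 997 CPM in normal libraries (log2 fold change −1.37, SE 0.18, adjusted p = 0.000647). *BM-40-SPARC*, a collagen-binding matrix protein, was at 677, 599, 513 and 597 CPM in infested and 1072, 1124, 1009, 1041 and 1040.5 CPM in normal libraries (log2 fold change −0.83, SE 0.09, adjusted p = 0.00018). *Glt*, glutactin, another matrix protein, was at 219 to 399 CPM in infested and 548 to 814 CPM in normal libraries (log2 fold change −1.135, SE 0.18, adjusted p = 0.00193). The groups did not overlap for any of these. *Hml*, the hemolectin gene widely used to mark plasmatocytes, was at 1029, 1008, 1101 and 1885 CPM in infested and 789, 1243, 1714, 1627 and 2351 CPM in normal libraries, with overlap (log2 fold change −0.30, SE 0.29, adjusted p = 0.5). *Mp*, a collagen of the multiplexin type, was the basement membrane gene that rose, at 35.1, 36.6, 46.8 and 46.8 CPM in infested and 18.4, 16.05, 18.9, 15.2 and 13.9 CPM in normal libraries (log2 fold change 1.33, SE 0.13, adjusted p = 9.26e-05). The share of plasmatocyte-like cells fell alongside, and its part in these values was not tested.

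Receptors for phagocytosis went both ways. Of 12 tested, 6 were lower and 2 higher, against 9.71% and 8.18% of all genes. *crq*, a CD36-like receptor for dying cells, was at 6.98, 7.05, 7.11 and 8.68 CPM in infested and 19.7, 26.3, 15.4, 23.2 and 24.2 CPM in normal libraries (log2 fold change −1.57, SE 0.16, adjusted p = 0.000122). *Sr-CI*, a scavenger receptor, was at 129 to 209.8 CPM in infested and 314 to 506 CPM in normal libraries (log2 fold change −1.09, SE 0.17, adjusted p = 0.0018). *eater*, a receptor for bacteria, was at 115 ± 21.5 CPM (SD, n = 4) in infested and 208 ± 32.03 CPM (SD, n = 5) in normal libraries (log2 fold change −0.85, SE 0.14, adjusted p = 0.00282). *NimC1*, another such receptor, was at 82.6 ± 13.4 CPM in infested and 141 ± 11.2 CPM in normal libraries (log2 fold change −0.78, SE 0.11, adjusted p = 0.00108). *Sr-CIV*, another scavenger receptor, was higher in every infested library, at 79.8, 81.6, 86.3 and 80.2 CPM, against 37.6, 51.3, 40.7, 36.1 and 38.5 CPM in normal libraries (log2 fold change 1.002, SE 0.10, adjusted p = 0.000133). *Tep1*, a secreted thioester protein of the kind that binds to the surface of foreign bodies, was at 1277, 1759.9, 1344 and 1409.8 CPM in infested and 744, 924, 729, 761 and 821 CPM in normal libraries (log2 fold change 0.86, SE 0.11, adjusted p = 0.000535).

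Prohemocyte genes showed unequal changes. Of 10 prohemocyte markers 4 were lower and 1 higher, and of 17 markers of early prohemocytes 5 were lower and 1 higher, while 9.71% of all genes were lower and 8.18% higher. *Ance*, an angiotensin-converting enzyme homolog, was at 1573, 1106, 1138 and 1169 CPM in infested libraries and at 2270.5, 2403, 2189, 2429 and 2088 CPM in normal libraries (log2 fold change −0.87, SE 0.11, adjusted p = 0.00055). *Tep4*, a thioester protein gene that marks the medullary zone of the lymph gland, was at 1009, 667, 775 and 959 CPM in infested and 728, 897, 1228, 1231 and 1444 CPM in normal libraries, which overlapped (log2 fold change −0.38, SE 0.20, adjusted p = 0.206). *IM18* was at 269.6 to 476 CPM in infested and 515 to 937 CPM in normal libraries (log2 fold change −1.05, SE 0.21, adjusted p = 0.0065). *Lip4*, a lipase gene, was higher, at 24.7 to 41.1 CPM in infested and 14.6 to 24.2 CPM in normal libraries (log2 fold change 0.84, SE 0.17, adjusted p = 0.00719). The *Lip4* call was lost in a fit with all 18 lymph gland libraries of the series (0.84, adjusted p = 0.131).

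Among the early prohemocyte markers that fell were the Notch receptor and its targets. *N* was at 63.2, 61.7, 60.8 and 70.03 CPM in infested libraries and at 108, 136, 86.8, 109.6 and 125 CPM in normal libraries, with no overlap (log2 fold change −0.83, SE 0.12, adjusted p = 0.00127). *E(spl)mbeta-HLH* and *E(spl)m3-HLH*, repressors that Notch signaling induces, were both lower. *E(spl)mbeta-HLH* was at 128 to 201 CPM in infested and 317 to 613 CPM in normal libraries (log2 fold change −1.37, SE 0.21, adjusted p = 0.00157). *E(spl)m3-HLH* was at 0.542 to 2.67 CPM in infested and 5.18 to 18.9 CPM in normal libraries (log2 fold change −2.94, SE 0.48, adjusted p = 0.00232). *Dl*, the Notch ligand, was close to the limit of detection at 0.582 to 0.926 CPM in infested and 0.750 to 2.44 CPM in normal libraries (log2 fold change −0.86, SE 0.39, adjusted p = 0.145). Of 15 Notch pathway genes tested, 5 were lower and none higher, against 9.71% and 8.18% of all genes. The genes *lz* and *numb* among these 5 were crystal cell markers as well.

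The JAK/STAT pathway is needed in the lymph gland to keep prohemocytes and is known to be switched down there after infestation. *Socs36E*, a feedback inhibitor that the pathway induces, was at 10.9, 14.2, 15.5 and 16.9 CPM in infested libraries, against 5.73, 6.16, 4.86, 7.29 and 5.32 CPM in normal libraries (log2 fold change 1.28, SE 0.16, adjusted p = 0.000437). The lowest infested library exceeded the highest normal one. In infested libraries *Socs36E* stood at 44.8 CPM in lamellocyte-like, 41.7 CPM in GST-rich-like, 173 CPM in dorsal vessel-like and 7.45 CPM in prohemocyte-like cells. In normal libraries these classes had 4.44, 9.64, 185 and 3.50 CPM. The part of the mixture of cells in the rise of *Socs36E* was not tested. The transcription factor *Stat92E* was at 124, 138, 143 and 156 CPM in infested and 183, 163, 164, 150.4 and 197 CPM in normal libraries (log2 fold change −0.29, SE 0.10, adjusted p = 0.0708), which overlapped, and DESeq2 called it lower (adjusted p = 0.029). The receptor *dome* (log2 fold change 0.17, SE 0.32, adjusted p = 0.745) and the kinase *hop* (log2 fold change 0.24, SE 0.15, adjusted p = 0.298) did not pass either. Of 11 genes of the pathway 3 were higher and 1 lower, against 8.18% and 9.71% of all genes.

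In the EGF receptor and Ras pathway 4 of 17 genes were lower and 1 higher, against 9.71% and 8.18% of all genes. *kek1*, a transmembrane inhibitor of the receptor that is also a target of the pathway, was at 9.43, 11.7, 7.40 and 6.71 CPM in infested libraries and at 57.5, 101, 45.1, 70.2 and 83.8 CPM in normal libraries, among the 15 largest falls (log2 fold change −3.01, SE 0.25, adjusted p = 3.94e-05). *Egfr* was at 4.80, 2.53, 2.58 and 2.78 CPM in infested and 5.90, 8.66, 5.62, 7.099 and 7.20 CPM in normal libraries (log2 fold change −1.12, SE 0.23, adjusted p = 0.00742). *rho*, the protease that releases the ligands, was at 11.3, 8.61, 7.65 and 6.60 CPM in infested and 12.8, 42.4, 14.8, 26.7 and 18.7 CPM in normal libraries (log2 fold change −1.44, SE 0.33, adjusted p = 0.0135). The groups did not overlap for these 3 genes. Of 10 genes of the PSC only *Ilp6*, an insulin-like peptide, was called, as lower, against 9.71% of all genes. Its level was 8.22 to 25.03 CPM in infested and 28.003 to 42.04 CPM in normal libraries (log2 fold change −1.17, SE 0.25, adjusted p = 0.0107). The paper also reports a driver line of this gene in other cell types, crystal cells among them. Crystal cell-like cells were fewer in infested libraries, and their part in this fall was not tested. *kn*, the gene of the transcription factor Collier, was at 14.7 to 23.1 CPM in infested and 11.3 to 21.6 CPM in normal libraries (log2 fold change 0.37, SE 0.19, adjusted p = 0.198). *Antp* was at 6.65 to 12.6 CPM in infested and 4.22 to 13.3 CPM in normal libraries (log2 fold change 0.55, SE 0.31, adjusted p = 0.243). Both had their highest normal value in library 1, without which each was called higher (log2 fold changes 0.51 and 0.88, adjusted p = 0.0467 and 0.0169).

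Antimicrobial peptide genes were lower in infested lymph glands. Of 11 tested 6 were lower and none higher, with a median log2 fold change of −2.05, against 9.71% of all genes called lower. *Drs*, the antifungal peptide Drosomycin, was at 67.4, 35.4, 5.15 and 4.05 CPM in infested libraries, against 301, 521, 270.0, 379 and 578 CPM in normal libraries (log2 fold change −3.86, SE 0.74, adjusted p = 0.00599). *AttA* and *AttB* encode Attacins, which are active against Gram-negative bacteria. *AttA* was at 59.2, 56.03, 5.82 and 3.59 CPM in infested libraries, against 181, 298, 184, 256 and 263 CPM in normal libraries (log2 fold change −2.91, SE 0.70, adjusted p = 0.0171). *AttB* was at 117, 94.3, 16.3 and 7.41 CPM in infested libraries, against 283, 550.0, 325, 424 and 395 CPM in normal libraries (log2 fold change −2.75, SE 0.66, adjusted p = 0.0177). *Dro*, Drosocin, was at 215, 225, 97.9 and 65.5 CPM in infested and 676, 1328, 671, 647 and 668 CPM in normal libraries (log2 fold change −2.40, SE 0.38, adjusted p = 0.00202). All infested libraries lay below all normal ones for these 4 genes.

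The infested libraries were not alike in this respect. *CecA2*, a Cecropin, was at 1218, 825, 254 and 149 CPM in infested and 1869, 2423, 1486, 2404 and 1960.3 CPM in normal libraries (log2 fold change −1.73, SE 0.51, adjusted p = 0.039). Its call was lost without infested library 2 or 3 or any 1 of the normal libraries (log2 fold changes −1.91 to −1.47, adjusted p from 0.0518 to 0.0995). Libraries 1 and 2 kept several times more *AttA* and *CecA2* transcripts than libraries 3 and 4, and *Drs* and *AttB* were split in the same way. The same libraries differed in depth, in mitochondrial share and in the minimum number of genes that the authors required of a cell, and the part of these in the split was not tested. The number of peptide genes called lower ranged from 4 to 10 of 11 when single libraries were left out, and it was 10 without infested library 1 and 4 without infested library 2, infested library 3 or normal library 1, 2, 4 or 5. *CG16713*, which was not on the list, showed the same split, at 38.1, 26.1, 3.62 and 1.39 CPM in infested and 197, 352, 157, 444 and 471 CPM in normal libraries (log2 fold change −4.20, SE 0.79, adjusted p = 0.00514). *Drs* lies on chromosome 3L from 3369556 to 3369942 on the plus strand of BDGP6.54.

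**Figure D3:**
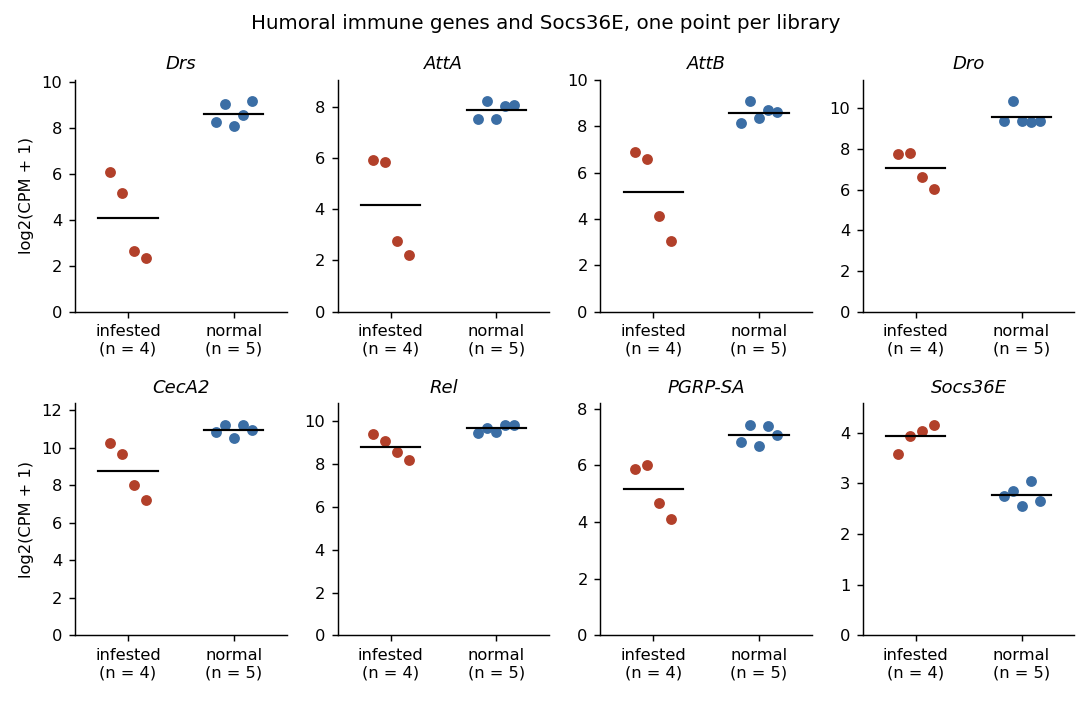
Level of 5 antimicrobial peptide genes, 2 Toll and Imd pathway genes and *Socs36E*, as log2(CPM + 1) on the y axis, for 4 infested libraries (left) and 5 normal libraries (right), in the order of the library numbers from left to right. Each point is a library and the line is the mean of the points. For the peptide genes infested libraries 1 and 2 lie above infested libraries 3 and 4, and all 4 lie below the normal libraries.

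The pathways upstream of these peptides changed in both directions. In the Toll pathway 5 of 12 genes were lower and 2 higher, and in the Imd pathway 4 of 15 were lower and 2 higher, against 9.71% and 8.18% of all genes. *PGRP-SA*, a receptor that senses Gram-positive bacteria, was at 57.4, 63.6, 24.4 and 16.2 CPM in infested and 112, 173, 102, 166 and 135.3 CPM in normal libraries (log2 fold change −1.76, SE 0.36, adjusted p = 0.0081). *cact*, the inhibitor that Toll signaling both degrades and induces, was at 129, 103, 86.4 and 79.3 CPM in infested and 241, 273, 179, 569.8 and 436 CPM in normal libraries (log2 fold change −1.77, SE 0.32, adjusted p = 0.00387). *PGRP-LB*, an amidase that degrades peptidoglycan, was at 34.03 to 107 CPM in infested and 141 to 325 CPM in normal libraries (log2 fold change −1.75, SE 0.34, adjusted p = 0.00603). *Rel*, the NF-kappaB factor of the Imd pathway, was at 671, 535, 379.8 and 288 CPM in infested and 705, 836, 734, 902 and 922 CPM in normal libraries (log2 fold change −0.81, SE 0.21, adjusted p = 0.0251). The call was lost without infested library 3 or normal library 2, 4 or 5 (log2 fold changes −0.80 to −0.72, adjusted p from 0.0512 to 0.0807). By contrast *Tl*, the receptor Toll, was higher in every infested library, at 54.7, 64.9, 73.7 and 81.3 CPM, against 44.5, 43.7, 45.6, 44.6 and 54.4 CPM in normal libraries (log2 fold change 0.56, SE 0.12, adjusted p = 0.00908). Its adaptor *Myd88* was at 70.4, 92.4, 87.9 and 76.97 CPM in infested and 70.5, 57.4, 47.7, 41.1 and 39.6 CPM in normal libraries (log2 fold change 0.69, SE 0.16, adjusted p = 0.0166). This call was lost without infested library 3 (0.65, adjusted p = 0.0536). In the list of melanization genes, 6 of 9 were lower, and the gene that was higher was *PPO3*, against 9.71% and 8.18% of all genes. *PPO1* and *PPO2* among these 6 were crystal cell markers as well, and *PPO3* was a lamellocyte marker.

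Stress and signaling genes moved in part. Of 14 genes of the JNK pathway 4 were higher and none lower, against 8.18% and 9.71% of all genes. *Ets21C*, an ETS factor that JNK signaling induces, was at 69.5, 64.6, 71.02 and 43.8 CPM in infested and 32.4, 33.04, 31.7, 51.2 and 37.05 CPM in normal libraries (log2 fold change 0.75, SE 0.17, adjusted p = 0.0139). The call was lost without infested library 3 (0.68, adjusted p = 0.0502) and in a fit with all 18 lymph gland libraries (0.75, adjusted p = 0.349). *puc*, the phosphatase induced by the pathway, was at 265, 424, 251 and 198 CPM in infested and 339, 303, 179, 178 and 139.8 CPM in normal libraries (log2 fold change 0.32, SE 0.28, adjusted p = 0.459). *Gadd45*, a stress gene, was at 348, 242, 304 and 199 CPM in infested and 959, 1590.1, 851, 1027 and 893 CPM in normal libraries, with no overlap (log2 fold change −1.96, SE 0.22, adjusted p = 0.000202). *scyl*, an inhibitor of TOR signaling, was higher, at 148, 168, 278 and 316 CPM in infested and 129, 138, 115, 79.9 and 107 CPM in normal libraries (log2 fold change 1.000, SE 0.23, adjusted p = 0.0141). *Keap1*, which restrains the antioxidant response, was at 35.6 to 85.8 CPM in infested and 105.7 to 157 CPM in normal libraries (log2 fold change −1.11, SE 0.22, adjusted p = 0.00662). *GstD7*, a glutathione S-transferase, was at 128 to 160.1 CPM in infested and 73.6 to 111 CPM in normal libraries (log2 fold change 0.76, SE 0.12, adjusted p = 0.0019).

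The small heat shock genes *Hsp23* and *Hsp27* were lower. *Hsp23* was at 7.42, 6.27, 4.32 and 5.67 CPM in infested libraries, against 238, 15.3, 40.2, 123 and 38.1 CPM in normal libraries (log2 fold change −3.92, SE 0.75, adjusted p = 0.00585). *Hsp27* was at 47.0, 53.9, 66.8 and 98.2 CPM in infested libraries, against 178, 116, 103, 162 and 134.8 CPM in normal libraries (log2 fold change −1.07, SE 0.22, adjusted p = 0.00907). The normal libraries differed widely among themselves in *Hsp23*, with the highest value in library 1. The *Hsp27* call was lost in the fit with all 18 libraries (−1.06, adjusted p = 0.161). Of 9 heat shock genes tested 3 were lower and none higher, while 9.71% of all genes were lower. *E23*, an ABC transporter gene induced by ecdysone, was at 3.44, 6.75, 7.73 and 8.10 CPM in infested and 0.843, 0.666, 0.571, 0.512 and 1.05 CPM in normal libraries (log2 fold change 3.16, SE 0.31, adjusted p = 0.000102). *pnr*, a GATA factor of early hematopoiesis, was at 35.7, 36.7, 44.1 and 48.2 CPM in infested and 22.4, 25.2, 30.9, 26.9 and 31.6 CPM in normal libraries (log2 fold change 0.58, SE 0.13, adjusted p = 0.0111). It was not called with lamellocyte-like, crystal cell-like and dorsal vessel-like cells left out (0.43, adjusted p = 0.0502).

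Of 85 genes of cytosolic ribosomal proteins, 35 were lower and none higher, with a median log2 fold change of −0.28. This count depended on the libraries and the fit. It was 7, 11 and 10 without infested library 2, 3 or 4, 14, 18 and 9 without normal library 2, 3 or 4, and 51 without infested library 1 or by DESeq2. It was 5 without the filter on low counts and in the fit with all 18 libraries, and 6 with the replicate number as a block. None of 17 nuclear genes of oxidative phosphorylation and 2 of 73 mitochondrial ribosomal proteins were called, the last both higher. Of 44 DNA replication genes 2 were higher and 3 lower, and of 35 mitosis genes 2 were higher and 2 lower, at or below the shares of 8.18% and 9.71% of all genes. *CG30456*, outside the lists, was at 1.87 to 8.89 CPM in infested and 44.6 to 63.6 CPM in normal libraries (log2 fold change −3.44, SE 0.36, adjusted p = 0.000157). Further large falls outside the lists were those of *CG7860* (log2 fold change −3.26, SE 0.47, adjusted p = 0.00101), *CG14567* (log2 fold change −3.24, SE 0.68, adjusted p = 0.00914) and *CG42740* (log2 fold change −3.18, SE 0.51, adjusted p = 0.00213). For the noncoding RNA *CR43283* the normal libraries ranged from 0.0952 to 173 CPM and overlapped with the infested ones, at 0.116 to 0.416 CPM (log2 fold change −7.64, SE 1.75, adjusted p = 0.0138).

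**Figure D4:**
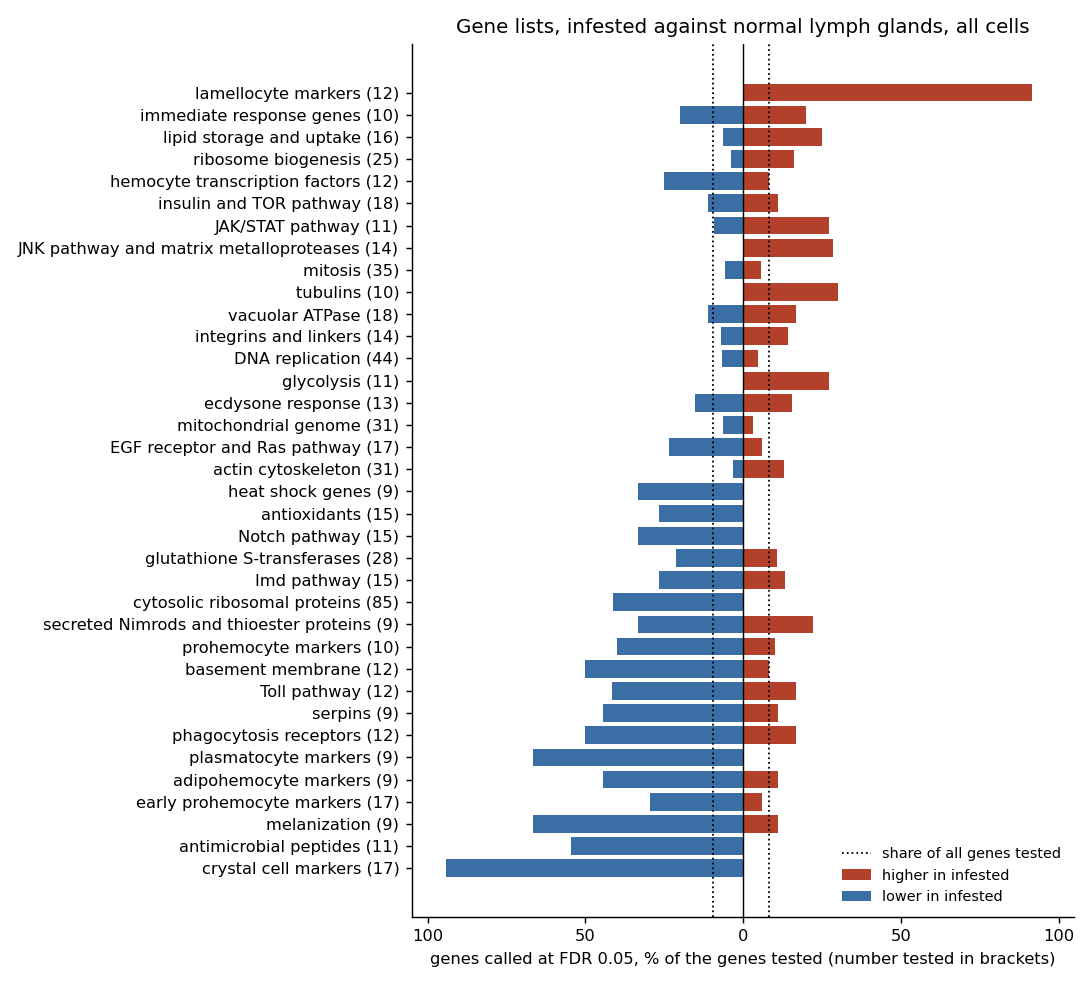
Share of the tested genes of each list (rows, number tested in brackets) that were higher (right) or lower (left) in infested than in normal lymph glands at an adjusted p under 0.05, in sums over all cells. Rows are ordered by their median log2 fold change, and dotted lines mark the shares among all genes tested, 8.18% higher and 9.71% lower. Lamellocyte markers stand at the top with 11 of 12 higher and crystal cell markers at the bottom with 16 of 17 lower.

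Since the mixture of cells differed between the groups, the comparison was repeated within classes. The prohemocyte-like class consisted of 3 clusters in unequal proportions. The cluster with *CycE*, *Mcm3* and *Mcm5*, genes of S phase entry and DNA replication, among its leading genes and the weakest rise of prohemocyte markers held 616 infested and 470 normal cells, while the other clusters held 529 and 538 infested and 757 and 732 normal cells. In prohemocyte-like cells, 242 of 6127 genes tested were higher (3.95%) and 289 lower (4.72%) in infested lymph glands, together 8.67%. These counts were 80 and 93 without infested library 3, 134 and 187 without infested library 4, 142 and 164 without normal library 2, and 107 and 147 without normal library 4. The genes that were higher numbered 373 without infested library 1 and 157 without infested library 2. Classes from coarser clusters, at resolution 0.4, gave 431 and 439 genes. Lamellocyte markers were raised here too, 6 of 8 tested, with a median log2 fold change of 1.71. *atilla* had 143 UMIs in infested and 3 UMIs in normal prohemocyte-like cells, a ratio of 59.0 after scaling to the totals (exact 95% counting interval 19.8 to 289). *CG14610* was at 11.5, 11.8, 5.89 and 17.3 CPM in infested and 0, 0, 0, 1.40 and 0 CPM in normal libraries (log2 fold change 4.85, SE 0.63, adjusted p = 0.000781). In the lamellocyte-like cells of infested libraries *atilla* stood at 3249 CPM, but in their PSC-like cells, for which neither gene is a marker, *atilla* stood at 14.1 CPM (4 UMIs, exact 95% counting interval 3.83 to 36.02 CPM) and *CG14610* at 24.6 CPM (7 UMIs). In their prohemocyte-like cells *atilla* stood at 11.5 and *CG14610* at 11.1 CPM. The median depth was 2812 UMIs in those PSC-like and 6474 UMIs in those prohemocyte-like cells. The level of *atilla* in infested prohemocyte-like cells lay within its counting interval in PSC-like cells. That of *CG14610* did as well, with an interval of 9.90 to 50.7 CPM in PSC-like cells. These few UMIs cannot tell which class was higher, and the part of free RNA from other cells in the rises of both genes was not tested.

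*mthl4* showed the largest of the rises named by rule in this class, at 55.5, 78.3, 74.95 and 62.2 CPM in infested and 12.01, 17.8, 6.94, 13.4 and 11.5 CPM in normal libraries (log2 fold change 2.41, SE 0.20, adjusted p = 3.74e-05). *CG1648* was at 203 to 339 CPM in infested and 83.1 to 128 CPM in normal libraries (log2 fold change 1.46, SE 0.16, adjusted p = 0.000255). *Dbi* was at 99.2, 127, 179 and 139 CPM in infested and 51.0, 50.4, 32.6, 53.9 and 52.8 CPM in normal libraries (log2 fold change 1.498, SE 0.17, adjusted p = 0.00044). In infested libraries *Dbi* stood at 146 CPM in prohemocyte-like, 21.1 CPM in PSC-like and 4475 CPM in lamellocyte-like cells, and the part of free RNA from other cells in its rise was not tested. *CG31219* (log2 fold change 1.96, SE 0.32, adjusted p = 0.00269) and *CG43179* (log2 fold change 1.68, SE 0.23, adjusted p = 0.00105) rose without overlap of the groups. The remaining rises named by rule were of ribosomal RNA. The pseudogene *28SrRNA-Psi:CR45855* was at 26.1, 54.4, 45.3 and 191 CPM in infested and 27.03, 13.9, 21.2, 8.66 and 14.8 CPM in normal libraries (log2 fold change 2.22, SE 0.50, adjusted p = 0.0147). The mitochondrial *mt:srRNA* was at 59.8, 378, 203 and 575 CPM in infested and 60.8, 177, 97.5, 61.2 and 81.4 CPM in normal libraries (log2 fold change 1.63, SE 0.47, adjusted p = 0.0469). Both overlapped between the groups and both were highest in infested library 4, which had the highest shares of ribosomal RNA and mitochondrial UMIs over all its cells. The *mt:srRNA* call was lost without infested library 2, 3 or 4 or normal library 1, 3, 4 or 5 (1.131 to 1.79, adjusted p from 0.0766 to 0.148).

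The antimicrobial peptides fell within prohemocyte-like cells as in the whole, with 8 of 9 lower and a median log2 fold change of −2.51, against 4.72% of all genes. *Dro* was at 504, 451, 208 and 97.9 CPM in infested and 1409, 2539.6, 1287, 1346 and 1300.2 CPM in normal libraries (log2 fold change −2.31, SE 0.38, adjusted p = 0.0028). *AttA* was at 75.8, 77.98, 11.8 and 6.91 CPM in infested and 219, 416, 229, 356 and 363 CPM in normal libraries (log2 fold change −2.84, SE 0.50, adjusted p = 0.00436). Infested libraries 1 and 2 again lay above infested libraries 3 and 4, and all of them below the normal libraries. *Drs* was at 2.51, 1.64, 0.679 and 0.576 CPM in infested and 6.76, 40.1, 10.6, 43.0 and 39.2 CPM in normal libraries (log2 fold change −4.34, SE 0.60, adjusted p = 0.00111). *Rel* was at 609, 477, 350.1 and 253 CPM in infested and 674, 743, 677, 950.3 and 879 CPM in normal libraries (log2 fold change −0.89, SE 0.20, adjusted p = 0.0166). This call was lost without infested library 3 (−0.81, adjusted p = 0.0754) or normal library 4 (−0.82, adjusted p = 0.0516). *CG16713* (log2 fold change −3.05, SE 0.67, adjusted p = 0.0133) fell with the peptides, but not without infested library 3 (−2.71, adjusted p = 0.0651). The noncoding RNA *CR45045* was at 66.8, 76.7, 6.57 and 7.49 CPM in infested and 257, 428, 185, 227 and 273 CPM in normal libraries (log2 fold change −2.76, SE 0.54, adjusted p = 0.00766). *Hsp23* was the fifth of the falls named by rule (log2 fold change −2.61, SE 0.65, adjusted p = 0.0251). Its call was lost without infested library 2 or 3 or normal library 4 (−2.62 to −2.46, adjusted p from 0.0548 to 0.0872).

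Other falls in prohemocyte-like cells were those of *Ance* and *IM18*, both markers that also named the class. *Ance* was at 3989.6, 2887, 2807 and 2931 CPM in infested and 5407, 5632, 4883, 5331 and 5019 CPM in normal libraries (log2 fold change −0.74, SE 0.11, adjusted p = 0.00171). *IM18* was at 668 to 1172 CPM in infested and 1078 to 2258 CPM in normal libraries (log2 fold change −0.953, SE 0.20, adjusted p = 0.0102). The *IM18* call was lost without infested library 3 (−0.85, adjusted p = 0.0516). At resolution 1.2, where the cluster led by *CycE* stayed unnamed and outside the class, both *Ance* and *IM18* were called lower as well. *Tep4* was at 1514 to 2250.2 CPM in infested and 1623 to 3192 CPM in normal libraries, which overlapped (log2 fold change −0.33, SE 0.18, adjusted p = 0.274). *Gadd45* was at 374, 338, 397 and 267 CPM in infested and 643, 1075, 465, 681 and 649 CPM in normal libraries (log2 fold change −1.03, SE 0.20, adjusted p = 0.00681). Among transcription factors of hemocytes, 3 of 8 were higher and 1 lower, against 3.95% and 4.72% of all genes. *klu* was at 11.5, 9.83, 19.0 and 8.64 CPM in infested and 0.751, 2.44, 2.04, 0.838 and 2.97 CPM in normal libraries, with no overlap (log2 fold change 2.70, SE 0.35, adjusted p = 0.000808). *pnr* was at 26.5 to 40.9 CPM in infested and 13.5 to 28.2 CPM in normal libraries (log2 fold change 0.77, SE 0.21, adjusted p = 0.0382). The call was lost without infested library 3 or 4 or normal library 1, 2, 4 or 5 (0.64 to 0.80, adjusted p from 0.0579 to 0.147). *Socs36E* was at 3.77, 3.93, 11.3 and 9.21 CPM in infested and 7.51, 3.42, 2.86, 2.79 and 4.29 CPM in normal libraries (log2 fold change 0.87, SE 0.39, adjusted p = 0.179). It was called higher when classes came from coarser or finer clusters (1.73 and 1.98, adjusted p = 0.0102 and 0.01). *N* was at 47.2 to 61.6 CPM in infested and 51.4 to 104.6 CPM in normal libraries (log2 fold change −0.61, SE 0.17, adjusted p = 0.045). It was no longer called without any 1 library other than normal library 3 (−0.70 to −0.49, adjusted p from 0.0516 to 0.111).

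In plasmatocyte-like cells, 249 of 6092 genes tested were higher (4.09%) and 306 lower (5.02%), together 9.11%. These counts were 119 and 143 without infested library 3 and 153 and 185 without normal library 4. The genes that were lower numbered 190 without infested library 2 and 178 without normal library 2. Classes from coarser clusters gave 445 and 533 genes. Of 11 lamellocyte markers tested 9 were higher and 1 lower, with a median log2 fold change of 3.31. *atilla* was at 245, 262, 287 and 156 CPM in infested libraries, against 1.46, 13.1, 6.12, 19.6 and 8.36 CPM in normal libraries (log2 fold change 4.47, SE 0.33, adjusted p = 4.48e-06). *CG12133* was at 20.5, 32.3, 41.1 and 24.9 CPM in infested and 0, 0.262, 0, 0.338 and 0 CPM in normal libraries. It had 274 UMIs in infested and 2 UMIs in normal libraries, a ratio of 219 after scaling to the totals (exact 95% counting interval 60.2 to 1822). *PPO3* was at 22.1, 39.8, 19.9 and 18.7 CPM in infested and 0, 0.785, 1.02, 2.03 and 0.364 CPM in normal libraries (log2 fold change 4.69, SE 0.41, adjusted p = 1.37e-05). *CG14610* (log2 fold change 6.45, SE 0.54, adjusted p = 1.13e-05) and *CR44948* (log2 fold change 4.95, SE 0.49, adjusted p = 3.22e-05) were also among the 5 largest rises. In infested libraries *atilla* stood at 262 CPM in plasmatocyte-like and 14.1 CPM in PSC-like cells, and *CG14610* at 84.5 and 24.6 CPM. *CR44316* was at 168, 181, 197 and 205 CPM in infested and 19.0, 19.9, 20.4, 55.4 and 30.2 CPM in normal libraries (log2 fold change 2.66, SE 0.25, adjusted p = 2.36e-05). *Mp* was at 11.2, 9.84, 17.2 and 10.9 CPM in infested and 1.46, 0.785, 3.57, 1.69 and 0.364 CPM in normal libraries (log2 fold change 3.09, SE 0.40, adjusted p = 0.000318).

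The genes that fell in plasmatocyte-like cells included crystal cell genes and antimicrobial peptides. *PPO1* was at 0, 4.22, 0.337 and 45.1 CPM in infested and 301, 279.9, 269, 285 and 413 CPM in normal libraries (log2 fold change −5.10, SE 0.74, adjusted p = 0.000766). In normal libraries it stood at 293 CPM in the plasmatocyte-like, 10.4 CPM in the prohemocyte-like and 15.9 CPM in the PSC-like cells, and at 33029 CPM in the crystal cell-like cells. *PPO2* was at 0.337 to 54.4 CPM in infested and 328 to 538 CPM in normal libraries (log2 fold change −4.87, SE 0.65, adjusted p = 0.000398). *peb* was at 0.673 to 1.56 CPM in infested and 9.79 to 21.98 CPM in normal libraries (log2 fold change −3.83, SE 0.38, adjusted p = 2.73e-05). Of 11 peptide genes 4 were lower, against 5.02% of all genes. *Drs*, the leading gene of the larger of the 2 plasmatocyte-like clusters, was at 377, 162, 31.6 and 14.001 CPM in infested and 875, 1436, 762, 1086 and 1571 CPM in normal libraries (log2 fold change −2.95, SE 0.66, adjusted p = 0.0131). *Dro* was at 81.5, 57.6, 32.7 and 80.1 CPM in infested and 309, 524, 194, 221 and 234 CPM in normal libraries (log2 fold change −2.26, SE 0.32, adjusted p = 0.000692). *CG16713* (log2 fold change −4.06, SE 0.74, adjusted p = 0.00398) and *CG14567* (log2 fold change −3.61, SE 0.49, adjusted p = 0.000496) were among the 5 largest falls.

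Among the plasmatocyte markers, which named the class, *BM-40-SPARC* was at 1692 to 2029 CPM in infested and 2423 to 2573 CPM in normal libraries (log2 fold change −0.45, SE 0.09, adjusted p = 0.00525). *Hml* was at 2121 to 4377 CPM in infested and 1431 to 4049.7 CPM in normal libraries (log2 fold change 0.017, SE 0.27, adjusted p = 0.987). *Cg25C* was at 1116 to 1934 CPM in infested and 1955 to 2497 CPM in normal libraries (log2 fold change −0.63, SE 0.15, adjusted p = 0.0193). This call was lost without infested library 2 (−0.56, adjusted p = 0.0658) or 3 (−0.52, adjusted p = 0.0743). *N* was lower here too, at 64.3, 70.3, 63.6 and 82.5 CPM in infested and 119, 156, 109, 129 and 152 CPM in normal libraries, with no overlap (log2 fold change −0.94, SE 0.14, adjusted p = 0.000763). *Socs36E* was at 8.03, 4.22, 9.43 and 7.001 CPM in infested and 1.46, 7.33, 1.53, 2.70 and 3.999 CPM in normal libraries (log2 fold change 0.92, SE 0.40, adjusted p = 0.176). It was called without normal library 2 (1.46, adjusted p = 0.0387). Of 85 cytosolic ribosomal proteins 48 were lower and none higher, while 5.02% of all genes were lower. Other settings were not run for this count, and in sums over all cells the count of this list moved between 5 and 51 with the fit.

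**Figure D5:**
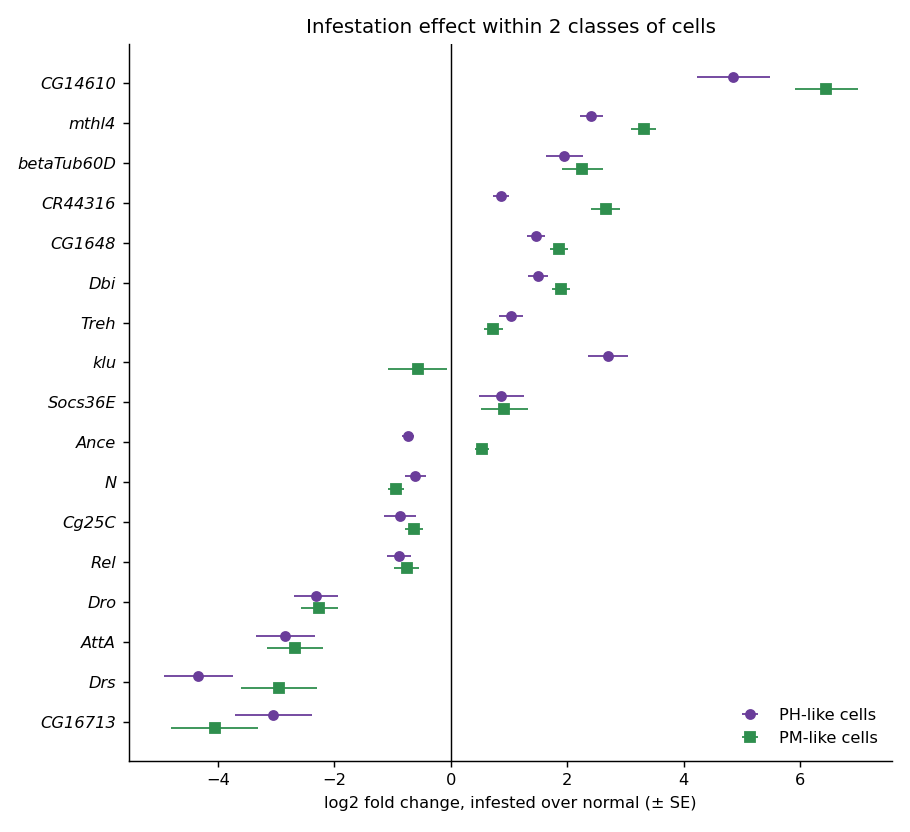
Log2 fold change of infested over normal lymph glands (x axis, bars show the SE of the fit) for 17 genes within prohemocyte-like cells (circles) and plasmatocyte-like cells (squares) of the same 9 libraries. Lamellocyte markers at the top lie above 0 and antimicrobial peptide genes at the bottom below 0 in both classes. The level of *CG14610* in infested prohemocyte-like cells lay within the counting interval of its level in PSC-like cells. By contrast *Ance* lies at −0.74 in prohemocyte-like and 0.54 in plasmatocyte-like cells and *klu* at 2.70 in prohemocyte-like and −0.57 in plasmatocyte-like cells.

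To ask whether the effect of infestation differed between the classes, the class by infestation term was tested in 1 fit with library as a block. Of 6446 genes, 272 had a more positive effect in plasmatocyte-like cells (4.22%) and 110 a more positive one in prohemocyte-like cells (1.71%), together 5.93%. *Ance* fell in prohemocyte-like cells, whereas in plasmatocyte-like cells it was at 426, 388, 386 and 366 CPM in infested and 313, 293, 207, 274 and 259.6 CPM in normal libraries (log2 fold change 0.54, SE 0.12, adjusted p = 0.0145). The difference of the effects was 1.32 on the log2 scale (SE 0.07, adjusted p = 3.52e-12). This depended on where the classes were divided, since with coarser clusters *Ance* was lower in plasmatocyte-like cells as well (−0.67, adjusted p = 0.00326) and the difference was 0.16 (adjusted p = 0.27). Of the 10 prohemocyte markers, which also named the class, 5 had a more positive effect in plasmatocyte-like cells and none the reverse. *CG33225* was at 86.8 to 179 CPM in infested and 9.31 to 46.2 CPM in normal plasmatocyte-like cells, but at 78.03 to 256 CPM in infested and 255 to 458 CPM in normal prohemocyte-like cells (log2 fold change 3.58, SE 0.22, adjusted p = 2.67e-11 for the difference). *CG10184* (log2 fold change 3.34, SE 0.45, adjusted p = 1.60e-05) and *Lip4* (log2 fold change 2.80, SE 0.46, adjusted p = 0.000276) also had a more positive effect in plasmatocyte-like cells, where they were at 4.34 to 13.3 and 0.768 to 15.3 CPM in infested and 0 to 1.998 and 0.356 to 1.81 CPM in normal libraries. *CG15550* was called (log2 fold change 4.15, SE 0.68, adjusted p = 0.000226) from infested libraries 3 and 4, with 11.3 and 24.6 CPM in plasmatocyte-like cells, while infested libraries 1 and 2 had 1.18 and 0 CPM. *CG12133* was the remaining gene of the 5 largest differences of this sign, from the same 2 normal UMIs as above, and with coarser clusters neither its difference (1.32, adjusted p = 0.164) nor that of *CG15550* was called.

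On the other side, *klu* was raised in prohemocyte-like cells, while in plasmatocyte-like cells it was at 0.926 to 7.30 CPM in infested and 2.33 to 8.27 CPM in normal libraries (log2 fold change −3.32, SE 0.41, adjusted p = 5.83e-06 for the difference). *rho* was at 2.32 to 27.2 CPM in infested and 27.9 to 95.1 CPM in normal plasmatocyte-like cells and at 4.97 to 11.8 CPM in infested and 3.80 to 10.6 CPM in normal prohemocyte-like cells (log2 fold change −2.54, SE 0.50, adjusted p = 0.00173). *Gadd45*, lower in both classes, fell further in plasmatocyte-like cells, where it was at 172 to 537 CPM in infested and 1464 to 2631 CPM in normal libraries (log2 fold change −1.40, SE 0.13, adjusted p = 5.71e-08). *Swim* was at 113 to 170.4 CPM in infested and 70.1 to 99.1 CPM in normal prohemocyte-like cells and at 1.58 to 3.32 CPM in infested and 3.88 to 5.34 CPM in normal plasmatocyte-like cells (log2 fold change −1.57, SE 0.32, adjusted p = 0.00214). It was not called with coarser clusters (−0.31, adjusted p = 0.3). *path*, an amino acid transporter gene, was at 3.39 to 9.95 CPM in infested and 2.07 to 5.73 CPM in normal prohemocyte-like cells and at 20.7 to 52.5 CPM in infested and 36.5 to 88.4 CPM in normal plasmatocyte-like cells (log2 fold change −1.21, SE 0.26, adjusted p = 0.00423). *L* (log2 fold change −1.21, SE 0.21, adjusted p = 0.000426) completed the 5 largest differences of this sign. Of 25 ribosome biogenesis genes 7 had a more positive effect in prohemocyte-like cells and none the reverse, against 1.71% and 4.22% of all genes. *Fib*, fibrillarin, was among the 7 (log2 fold change −0.68, SE 0.10, adjusted p = 8.03e-05). It was at 187 to 262 CPM in infested and 157 to 241 CPM in normal prohemocyte-like cells, with overlap. In plasmatocyte-like cells it was at 55.6 to 79.9 CPM in infested and 80.2 to 124 CPM in normal libraries. Its difference ranged from −0.80 to −0.25 over the alternatives and was called in each. The part of the unequal clusters of the prohemocyte-like class in these differences was not tested. Of 15 tested subunits of the vacuolar ATPase 5 had a more positive effect in plasmatocyte-like cells and none the reverse, against 4.22% and 1.71% of all genes.

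GST-rich-like and PSC-like cells were compared with normal library 1 left out, since it held under 10 cells of each. In GST-rich-like cells 181 of 3151 genes tested were called (5.74%), of which 55 were higher (1.75%) and the others lower. The genes that were higher numbered 95 without infested library 1, 30 without infested library 3, and 33 without normal library 4 or 5. Of 9 plasmatocyte markers 7 were lower and none higher, against 4.00% and 1.75% of all genes. *Cg25C* was at 274, 106.2, 136 and 170.4 CPM in infested and 619, 1212, 552 and 1376 CPM in normal libraries (log2 fold change −2.45, SE 0.31, adjusted p = 9.92e-05), and *NimC1* at 43.1, 7.92, 45.2 and 55.8 CPM in infested and 104.8, 187, 142 and 181 CPM in normal libraries (log2 fold change −2.06, SE 0.35, adjusted p = 0.00181). *Drs* was at 20.6, 0, 10.04 and 5.88 CPM in infested and 428, 422, 498 and 568 CPM in normal libraries (log2 fold change −5.68, SE 0.37, adjusted p = 4.48e-08). *Socs36E* was higher in this class, at 41.3, 38.03, 38.5 and 52.9 CPM in infested and 6.16, 16.02, 16.1 and 3.48 CPM in normal libraries (log2 fold change 1.9998, SE 0.39, adjusted p = 0.00532). *CG3397*, a marker that named the class, was at 251, 184, 278 and 229 CPM in infested and 98.6, 64.1, 145 and 143 CPM in normal libraries (log2 fold change 1.02, SE 0.22, adjusted p = 0.00972).

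PSC-like cells were few, with 81 infested and 69 normal cells in all 9 libraries, and 6 of 570 genes tested were higher (1.05%) and 8 lower (1.40%). Leaving out single libraries moved these counts between 2 without normal library 2 and 12 without infested library 1 for higher, and between 3 without normal library 2 and 13 without normal library 5 for lower genes. Fits without infested library 4 or normal library 4 called 3 higher and 5 lower. *Nplp2*, a neuropeptide-like precursor gene, was among the most abundant genes of the lymph gland as a whole. In PSC-like cells it was at 5024, 9248, 11913 and 11596 CPM in infested and 548, 992, 699 and 1029 CPM in normal libraries (log2 fold change 3.54, SE 0.28, adjusted p = 7.89e-07). *Nplp2* was on the list of plasmatocyte markers tested above but not among those that named clusters. The paper places its expression in cells in transition between prohemocytes and mature hemocytes, GST-rich cells among them, rather than in plasmatocytes alone. The naming markers of plasmatocytes, without *Nplp2*, together stood at 84.4 CPM in the infested and 164 CPM in the normal PSC-like cells. These markers do not cover the other cells that express *Nplp2*. The part of such cells or of their free RNA in its rise was not tested. The lamellocyte genes *atilla* and *PPO3* stood at 14.1 and 7.03 CPM in the infested PSC-like cells and had no UMI in the normal ones. *Gadd45* was at 1609.7, 749, 1339 and 687 CPM in infested and 7678, 5201, 3536 and 3233 CPM in normal libraries (log2 fold change −2.15, SE 0.29, adjusted p = 0.000412). *CG6023*, a marker that named the class, was at 2228, 1483, 1592 and 515 CPM in infested and 9381, 7696, 3099.8 and 3331 CPM in normal libraries (log2 fold change −1.997, SE 0.37, adjusted p = 0.0085). *kn* was at 2585, 2232, 3041 and 2949 CPM in infested and 866, 1653, 917 and 1714 CPM in normal libraries (log2 fold change 1.07, SE 0.24, adjusted p = 0.0272). The call was lost without infested library 3 or 4 or normal library 2 or 4 (log2 fold changes 0.93 to 1.06, adjusted p from 0.0509 to 0.102). *Antp*, the Hox gene of the PSC, was at 1577, 2153, 2600.2 and 2176 CPM in infested and 2425, 1714, 1615 and 2400.2 CPM in normal libraries, which overlapped (log2 fold change 0.06, SE 0.21, adjusted p = 0.914). The *Nplp2*, *Gadd45* and *CG6023* groups did not overlap.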

How the data were processed

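Lymph gland cells of wasp-infested and normal larvae (96 h AEL) were profiled by Drop-seq. The authors aligned reads with STAR 2.5.3a to BDGP6 and deposited raw UMI counts per gene and cell. The infested files held the cells left after the authors' filters, which included a ceiling on UMIs, Scrublet for doublets, and minimums of genes that differed between libraries. The normal files were unfiltered, and barcodes with 400 to 5000 genes and at most 10% mitochondrial UMIs were kept, with no ceiling on UMIs and no removal of doublets. The largest cells had 13181 to 22905 UMIs in infested and 35890 to 76290 UMIs in normal libraries. With a like ceiling on UMIs in both groups, 548 of 604 calls of higher and 680 of 717 calls of lower genes were kept. Only the 14999 genes listed in both sets of files were used, so 541 genes were not analysed here. No doublet caller was run here.

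UMIs were summed per library, over all cells or over the cells of a class with at least 10 cells in a library, and tested with edgeR 4.0.16 (TMM, filterByExpr, glmQLFit, glmQLFTest) with Benjamini-Hochberg adjustment over all genes tested. The difference between classes was the interaction term of 1 fit. Libraries were integrated by canonical correlation in Seurat 5.3.0 and clustered at resolution 0.8. Shares were compared by exact two-sided permutation tests over libraries. Genes were named by the 15 largest rises and 15 largest falls past an adjusted p of 0.05 with a mean of 20 CPM or more in the group with the higher level, by the 5 largest in each direction within classes, and as members of gene lists. The members and lists were chosen with earlier results of these data known, and the rule for naming clusters and some of the list members printed were set after values were seen. On simulated counts the test recovered 40.3%, 74.6% and 93.9% of genes changed 1.5-fold, 2-fold and 4-fold in all cells, with 4.79% of its calls false. These counts were drawn from the model that the test assumes, with dispersions fitted to these data. They held no outlying library and no unequal cell filters, so the shares do not measure errors from those sources. Alternatives were DESeq2 1.42.0, RLE size factors, other filters, resolutions and cell filters, a replicate block, and leaving out each library. Leaving out lamellocyte-like, crystal cell-like and dorsal vessel-like cells was chosen after seeing the data. Intervals were computed with SciPy 1.17.1 and cover counting error only. A planned search of promoters for motifs was not run.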

Additional observations from a re-analysis of the deposited data

Results flagged for a closer look

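Among 306 groups of 4 or 5 libraries checked, 41 held a library that lay far from the others by Dixon's test at the 95% level, which chance alone gives in about 1 in 20 groups. Infested library 2 and normal library 4 recurred among them. In sums over all cells, infested library 2 was the highest infested library for *betaTub60D* (501 CPM, next 196), *CR44948* (143 CPM, next 26.2), *CG1208* (158 CPM, next 35.7) and *alphaTub85E* (413 CPM, next 117), and in plasmatocyte-like cells for *PPO3* (39.8 CPM, next 22.1). Normal library 4 was the highest normal library for *betaTub60D* (45.9 CPM, next 6.24), *CR44948* (11.8 CPM, next 0.555), *CG1208* (15.6 CPM, next 0.333), *alphaTub85E* (57.1 CPM, next 18.2), *PPO3* (6.27 CPM, next 1.52), *CG14610* (43.6 CPM, next 1.69), *CG2556* (6.65 CPM, next 1.89) and *atilla* (41.3 CPM, next 11.8). It was also the highest for *CG14610* in prohemocyte-like cells (1.40 CPM, the others 0) and for *mthl4* (23.3 CPM, next 11.8) and *betaTub60D* (16.9 CPM, next 8.36) in plasmatocyte-like cells. What set normal library 4 apart from the other normal libraries was not tested.

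Single libraries also stood apart for other genes. In sums over all cells these were, among infested libraries, library 1 for *Ance* (1573 CPM, next 1169), *peb* (2.34 CPM, next 0.542) and *Egfr* (4.80 CPM, next 2.78), library 2 for *CG9119* (0.0602 CPM, the others 0), library 3 for *klu* (21.2 CPM, next 9.72) and, as the lowest, *ItgalphaPS5* (7.56 CPM, next 9.65), and library 4 for *Hml* (1885 CPM, next 1101) and *crq* (8.68 CPM, next 7.11). Among normal libraries they were library 1 for *fok* (287 CPM, next 166), *CG7860* (96.9 CPM, next 38.2), *Sr-CI* (506 CPM, next 367) and *Antp* (13.3 CPM, next 5.92), library 2 for *Dro* (1328 CPM, next 676) and *Gadd45* (1590.1 CPM, next 1027), library 4 for *Ets21C* (51.2 CPM, next 37.0) and library 5 for *eater* (263 CPM, next 200.3) and *Tl* (54.4 CPM, next 45.6).

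Within prohemocyte-like cells, infested library 1 stood apart for *Ance* (3990 CPM, next 2931), normal library 1 for *Hsp23* (90.1 CPM, next 27.1), normal library 2 for *Dro* (2540 CPM, next 1409) and normal library 3, as the lowest, for *Dbi* (32.6 CPM, next 50.4). Within plasmatocyte-like cells, *PPO1* was highest in infested library 4 (45.1 CPM, next 4.22) among infested and in library 5 (413 CPM, next 301) among normal libraries. The share of crystal cell-like cells was highest in infested library 1 (0.142%, next 0.0584%), which had 3 such cells, and that of dorsal vessel-like cells in normal library 1 (1.90%, next 1.05%).

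The effect of infestation differed between plasmatocyte-like and prohemocyte-like cells, by the test of the difference itself, for the genes named above. As log2 effect in plasmatocyte-like minus that in prohemocyte-like cells the values were 4.53 for *CG12133*, 4.15 for *CG15550*, 3.58 for *CG33225*, 3.34 for *CG10184*, 2.80 for *Lip4* and 1.32 for *Ance*. They were −3.32 for *klu*, −2.54 for *rho*, −1.57 for *Swim*, −1.40 for *Gadd45*, −1.21 for *L* and *path* and −0.68 for *Fib*.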

How the results depend on the processing

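Without any 1 library the counts of called genes in all cells ranged from 299 to 701 higher and 411 to 830 lower, in PH-like cells from 80 to 373 higher and 93 to 419 lower, in PM-like cells from 119 to 299 higher and 143 to 394 lower, in GST-rich-like cells from 30 to 95 higher and 91 to 178 lower, in PSC-like cells from 2 to 12 higher and 3 to 13 lower, and for the difference between classes from 208 to 278 more positive in PM-like and 79 to 118 in PH-like cells. The resolution of the clusters also moved results in PH-like and PM-like cells. At resolution 0.4, 431 genes were higher and 439 lower in PH-like and 445 higher and 533 lower in PM-like cells, 186 had a more positive effect in PH-like cells, and *Ance* (−0.67, adjusted p = 0.00326) and *klu* (1.64, adjusted p = 0.022) in PM-like cells and the difference for *CG15550* (−0.33, adjusted p = 0.897) reversed, and the cause was not tested. At resolution 1.2, 400 genes were higher in PH-like cells and 185 had a more positive effect in PH-like cells. Rounding in the linear algebra library, set by the type of processor, moved cluster borders as well. DESeq2 called 15 genes lower in PSC-like cells, and in all cells 767 genes higher and 857 lower, sharing 597 of the 604 and 711 of the 717 calls. At resolution 0.4 the differences in shares of PH-like (−3.37 points), dorsal vessel-like (−1.32 points) and unnamed cells (6.13 points) no longer passed the test, and without integration that of dorsal vessel-like cells was −0.0555 points. Without 1 library the difference ranged from −3.72 to −2.29 points for PH-like and from −0.82 to −0.53 points for dorsal vessel-like cells.

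Same-numbered libraries of the 2 groups deviated together with correlations across genes of −0.10, 0.30, 0.27 and −0.19, so that the numbers did not pair them, and not every library correlated best with its own number. With the replicate number as a block, in which normal library 5 has no partner, 338 genes were higher in all cells, 159 were higher in PH-like cells, 102 higher and 139 lower in PM-like cells and 22 higher and 29 lower in PSC-like cells. With the block the calls of *CG1208* (adjusted p = 0.069), *Rel* (0.0648), *Ets21C* (0.0771) and *scyl* (0.087) were lost in all cells. Depth limited the smaller classes, since 570 genes could be tested in PSC-like and 7387 in all cells.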

Other observations

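The series also holds normal lymph glands of 72 h and 120 h AEL, which entered no comparison here and are given as values, with the median and range over libraries in CPM after 1 TMM normalization of all 18 lymph gland libraries. Infested libraries had *PPO1* at a median of 7.45 CPM (1.91 to 28.5), and normal libraries at 0.20 CPM (0 to 46.3) at 72 h, 622 CPM (595 to 816) at 96 h and 551 CPM (284 to 771) at 120 h AEL. For *Drs* the median was 19.1 CPM (3.76 to 62.7) in infested libraries and 16.6 CPM (0.771 to 60.2) at 72 h, 355 CPM (250.2 to 535) at 96 h and 1607 CPM (1193 to 2265) at 120 h in normal libraries. The EGF receptor inhibitor *kek1* had medians of 7.85 CPM (6.22 to 11.1) in infested libraries and 8.79 CPM (6.55 to 18.6) at 72 h, 65.7 CPM (41.8 to 94.8) at 96 h and 296 CPM (215 to 389) at 120 h in normal libraries. For these 3 genes the infested range, at 96 h, overlapped that of normal lymph glands of 72 h and lay below the ranges of 96 h and 120 h.

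Other genes did not take the levels of any normal age. *Ance* had a median of 1075 CPM (1042 to 1464) in infested libraries, and 2856 CPM (2610.3 to 3346) at 72 h and 2099 CPM (1932 to 2273) at 96 h in normal libraries. *Gadd45* had a median of 257 CPM (184 to 324) in infested libraries, below the lowest normal library of any age, at 604 CPM. *Dbi* had a median of 636 CPM (485 to 724) in infested libraries, and 26.6 CPM (23.6 to 36.0) at 72 h, 69.3 CPM (52.4 to 86.5) at 96 h and 22.3 CPM (19.8 to 39.8) at 120 h in normal libraries. *atilla* had a median of 228 CPM (194 to 414) in infested libraries, and 12.02 CPM (0 to 17.6) at 72 h, 2.92 CPM (0.779 to 38.7) at 96 h and 45.9 CPM (19.9 to 79.8) at 120 h in normal libraries. The ages were not tested against the infested libraries, and library preparation and age cannot be told apart.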
